A study of Arabidopsis thaliana with 9 samples.

Results

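Small RNAs of the rls6 mutant of Arabidopsis thaliana were set against those of the prors1 (LUC) mutant, with 3 libraries per genotype. The values came from a table of 37336 annotated loci, and the loci compared were those that reached 10 normalized reads in 3 or more of the 6 mutant libraries. This left 4488 of the 37336 loci. A normalized read is a read count divided by a size factor for its library.

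The labels give the genotypes as rls6, prors1 (LUC) and Col-0 (LUC), the last being the common laboratory accession, with 3 libraries of each. They do not state what LUC marks, which allele prors1 carries, which change rls6 carries, or whether rls6 also holds the prors1 allele. A second label calls them rbp-ko-2 (rls6) and rbp-ko-1 (prors1 (LUC)), which does not match the genotype names. Soil-grown plants had a light period of 16 h and a dark period of 8 h, and their age is 25 days in one label and 26 days in another. RNA of 17 to 30 nt was cut from a gel on which 30 µg of total RNA had been run and went into a NEBNext small RNA library kit. Whether the 3 libraries of each genotype stand for separate plants is not stated, so every p-value below measures the spread between libraries only, which may be technical. The RNA was total plant RNA, in which fewer cells of a type and less RNA per cell cannot be told apart.

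In plants, Dicer-like enzymes cut small RNAs from hairpins or from double-stranded RNA, and Argonaute proteins use them to find matching transcripts or DNA. MicroRNAs are cut from the hairpin transcripts of MIR genes. Trans-acting siRNAs are cut in register from TAS transcripts that a microRNA has cleaved, and other siRNAs arise from transposons, inverted repeats and some protein-coding genes. PRORS1 encodes the prolyl-tRNA synthetase that charges tRNA in both chloroplasts and mitochondria, and its mutants are known for weaker translation in both organelles and lower expression of nuclear photosynthesis genes.

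The table lists 0 of the 326 MIR genes of the reference annotation, so reads of a microRNA could be counted only at a listed locus that overlaps its gene. The mature microRNAs shown here lie within the loci of that kind that differed between rls6 and prors1 (LUC), and they are sequences that reads at these loci could hold, except that miR156g, miR8165 and both forms of miR841a lie outside the annotated exons of their locus, over which reads were counted. They were read from the RefSeq TAIR10.1 genome and annotation, 5′ to 3′, with the seed (bases 2 to 8) in capitals. The first 11 belong to loci that were higher in rls6.
miR780.1: uCUAGCAGcuguugagcaggu
miR780.2: uUCUUCGUgaauaucuggcau
miR4243: uUGAAAUUguagauuucguac
miR5017-3p: uUAUACCAaauuaauagcaaa
miR5017-5p: aUUUGUUAcuaauuuggaaug
miR156g: cGACAGAAgagagugagcac
miR826a: uAGUCCGGuuuuggauacgug
miR826b: uGGUUUUGgacacgugaaaau
miR5996: uGACAUCCagauagaagcuuug
miR841b-5p: uACGAGCCacuggaaacugaa
miR8165: aAUGGAGGcaagugugaagga
miR841a-5p: uACGAGCCacuugaaacugaa
miR841a-3p: aUUUCUAGugggucguauuca
miR5642b: uCUCGCGCuuguacggcuuu
The last 3 lie in loci that were lower in rls6. miR841b-5p and miR841a-5p share the seed ACGAGCC, and they lie at loci of which 1 was lower (miR841a-5p) and 1 higher (miR841b-5p).

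Across the 4488 tested loci, 829 passed adjusted p 0.05 with limma (Benjamini-Hochberg over all tested loci), which is 18.5% of them. The 560 loci that were higher in rls6 make up 12.5% of the tested loci and the 269 that were lower 5.99%. At least 2-fold differences were found at 266 of the higher loci and at 42 of the lower ones, and at least 8-fold differences at 23 and 4. The median of the log2 fold changes (rls6 over prors1 (LUC)) was -0.025 across all tested loci. Folds given as log2 are on the log2(normalized reads + 1) scale, which understates the change of loci with few reads. The balance of the calls depended on the scaling and the tool. Upper-quartile scaling gave 484 higher and 469 lower, or 50.8% higher where the main test had 67.6%, and moved the median to -0.11. DESeq2 on recovered whole reads gave 395 higher and 94 lower, and limma without a trend 443 and 133. Without rls6 replicate 3 the loci lower in rls6 numbered 175. In all 17 alternative settings that tested them, 352 of the 560 higher and 64 of the 269 lower calls held.

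The 6 mutant libraries held 611238 to 679773 reads over annotated loci, and single libraries of all 9 had a read at 13649 to 15793 loci. A single locus, AT3G15920, took up to 22.3% of the reads of a mutant library. Between libraries of one genotype the counts varied beyond counting error, as chi-square values divided by their degrees of freedom were 1.49 to 7.13. Of the tested loci, 61 passed the filter only through rls6, with at least 10 normalized reads in all rls6 libraries and in no prors1 (LUC) library, and 24 only through prors1 (LUC). Such loci had to differ, and 42 and 15 of them were called. Among the loci described below, CHX18, AT5G41612, AT5G48280, AT4G22760, AT5G39370, AT5G43755, AT1G06417, AT3G05025, AT5G40020, AT2G02440, AT3G22050, AT3G23645, AT3G23650 and AT5G41494 passed only through rls6, and ABH1, CAB2, AT1G32140 and AT1G66490 only through prors1 (LUC). Their values are a description, and their direction and p-values lend no support to any group they belong to. At the filter itself, the 253 loci with exactly 3 libraries over 10 had a median level of 10.3 normalized reads, and the 292 left out with exactly 2 had 8.60. The gene named in the prors1 label gave few small RNAs. PRORS1 (AT5G52520, listed as OVA6 in the reference) had 21 reads over the rls6 libraries, 16 over prors1 (LUC) and 1 over Col-0 (LUC), a ratio of 1.23 between the mutants with a 95% exact counting interval of 0.612 to 2.52. RBP45D (AT5G19350), the RNA-binding protein gene named in the series title, had 0 reads in rls6, 1 in prors1 (LUC) and none in Col-0 (LUC). Small RNA reads do not measure the mRNA, so they leave the genotypes unchecked. Counting intervals here and below cover counting error only.

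**Figure D1:**
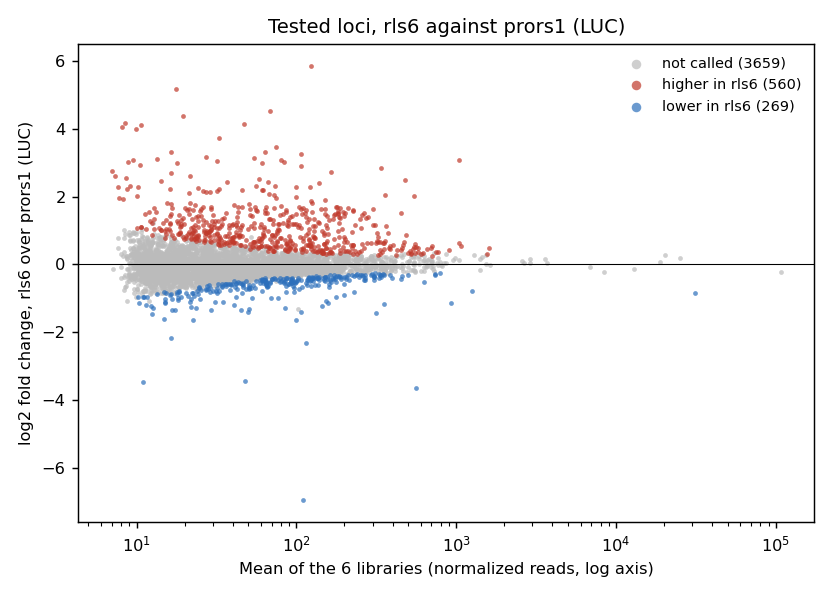
Each point is 1 of the 4488 tested loci, with the mean of the 6 libraries in normalized reads on a log x axis and the log2 fold change of rls6 over prors1 (LUC) on the y axis. Red points are the 560 loci higher in rls6 and blue points the 269 lower, and the single point near the bottom is the F-box gene AT1G32140 at -6.97.

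Of the loci called at least 2-fold higher in rls6, the one opposite MIR780 had the most reads. AT4G14810, a gene of unknown function on chromosome 4 (8504145 to 8504509, plus strand, TAIR10.1), had 1945, 1737 and 1863 normalized reads in rls6, against 248, 176 and 237 in prors1 (LUC). Col-0 (LUC) had 14.2, 14.5 and 18.4, so the genotypes did not overlap and rls6 was the farthest from Col-0 (LUC). The log2 fold change of rls6 over prors1 (LUC) was 3.08 ± 0.11 (SE, limma adjusted p = 1.24e-14). MIR780 lies at 8504141 to 8504314 on the minus strand, and miR780.1 (8504166 to 8504186) and miR780.2 (8504145 to 8504165) are complementary to an exon of AT4G14810. How the counting treated strand is not given in the sources used here, so microRNA reads and siRNA reads of this locus cannot be told apart.

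CHX18 (AT5G41610) is a cation/H+ exchanger gene on chromosome 5 (16638302 to 16641933, minus strand) whose transcript is a known miR780 target, and it passed the filter only through rls6. It had 17.4, 26.4 and 30.7 normalized reads in rls6, against 3.16, 0.964 and 2.05 in prors1 (LUC), with 2.51, 0 and 3.07 in Col-0 (LUC). The log2 fold change of rls6 over prors1 (LUC), given as a description, was 3.11 ± 0.39 (SE). AT5G41612, a long non-coding RNA gene on the other strand of CHX18, had 59.5, 49.0 and 40.6 in rls6, against 3.16, 4.82 and 6.15 in prors1 (LUC), a log2 fold change of 3.17 ± 0.28, and it too passed only through rls6. The pair overlaps, so their reads cannot be assigned to either gene. The stretches of the CHX18 coding sequence that pair best with the microRNAs, printed 5′ to 3′ with bases that form Watson-Crick pairs in capitals, lie next to each other. The stretch for miR780.1 is at 16639292 to 16639312 and that for miR780.2 at 16639313 to 16639333.
CHX18 site for miR780.1: AuCUGCaCAACAGCUGuaAGA
CHX18 site for miR780.2: AUGuCuGAUAUUCAuGAAGAu
Of the 21 bases of each, 17 form Watson-Crick pairs, 2 form G:U pairs and 2 are mismatched. With at most 3 bases outside Watson-Crick pairing, 1 of 4350 nuclear tested loci held a match to miR780.1 and 2 held a match to miR780.2 on their own strand, AT4G14810 being among them each time, while the CHX18 stretches have 4 such bases. A match is a description of the letters and not evidence of cleavage.

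Of the 37 tested loci that overlap a MIR gene, 9 were higher in rls6 (24.3%) and 3 were lower (8.11%), and the median was 0.18, beside 12.5%, 5.99% and -0.025 over all tested loci. Of the 9 higher loci, AT5G39370, AT5G48280 and AT4G22760 passed the filter only through rls6 and had to differ. With a minimum mean of 20 normalized reads, which tests fewer loci, 5 of 28 were higher (17.9%, beside 15.8% of the 3199 loci then tested), so the higher share is not a result about these loci. Without rls6 replicate 1, or without prors1 (LUC) replicate 1, HTA4 was the 1 locus of this kind called lower. Summed over the 37 loci, rls6 had 12996, 12758 and 13063 normalized reads, against 10540, 10259 and 10598 in prors1 (LUC). The groups did not overlap, and two-sided exact permutation over libraries gave p = 0.1, the smallest p that 3 against 3 allows (0.264 after Benjamini-Hochberg adjustment over the sums of 29 lists and classes). Without AT4G14810 the sums were 11051, 11021 and 11200 in rls6 and 10291, 10083 and 10361 in prors1 (LUC), so most of the difference came from that locus.

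Several of these loci had few reads in prors1 (LUC). AT5G48280, AT4G22760 and AT5G39370 passed the filter only through rls6, so their values and p-values are a description. AT5G48280, with MIR4243 on its opposite strand, had 12.8, 28.3 and 11.9 normalized reads in rls6, against 1.05, 0 and 3.08 in prors1 (LUC) (log2 fold change 3.09, adjusted p = 0.000105). AT4G22760, annotated in the tetratricopeptide repeat-like family, with MIR5017 opposite, had 17.4, 17.0 and 10.9 in rls6, against 3.16, 1.93 and 2.05 in prors1 (LUC) (2.24, adjusted p = 0.000188). Both loci were near 0 in Col-0 (LUC), at 1.29 and 0.268 normalized reads on average. AT5G39370, a lectin family gene, had 52 reads in rls6 and 0 in prors1 (LUC) and likewise 0 in Col-0 (LUC). Against a floor of 3 reads over the prors1 (LUC) group, rls6 was at least 16.1-fold higher. MIR3933 overlaps 5 of its bases, and no mature microRNA lies within it.

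MiR156 is known for holding plants in the juvenile phase by acting on SPL transcripts. AT2G19420, with MIR156g on its opposite strand, had 123, 128 and 121 normalized reads in rls6, against 34.7, 35.7 and 41.0 in prors1 (LUC), with 41.8, 57.8 and 57.4 in Col-0 (LUC). All rls6 libraries lay above the rest, with a log2 fold change of 1.72 ± 0.14 over prors1 (LUC) (adjusted p = 3.73e-09). The mature miR156g sequence lies outside the exons of AT2G19420. AT4G13560 (UNE15), with MIR5996 on its own strand, differed by a log2 fold change of 1.27 with adjusted p = 4.86e-05, while that of AT3G45180, with MIR8165, was 0.43 (adjusted p = 0.00134, not called by limma without a trend). AT4G03038, which covers MIR826a and MIR826b, had 13.7, 24.5 and 28.7 in rls6, against 10.5, 5.78 and 8.21 in prors1 (LUC), while Col-0 (LUC) had 249, 207 and 378. Both mutants were thus far below Col-0 (LUC) there, and the difference between them (1.32, adjusted p = 0.00549) was not called without rls6 replicate 3.

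Of the 3 tested loci at the MIR841 genes, 1 was lower, 1 higher and 1 not called. HTA4 (AT4G13570), a histone H2A gene with MIR841a on the other strand, fell to 52.2, 51.8 and 42.6 normalized reads in rls6, against 126, 122 and 113 in prors1 (LUC), with 191, 191 and 146 in Col-0 (LUC) (log2 fold change -1.29 ± 0.13, adjusted p = 2.22e-07). AT4G04408, opposite MIR841b, had 35.7, 33.0 and 38.7 in rls6, against 28.4, 19.3 and 18.5 in prors1 (LUC) (0.70 ± 0.22, adjusted p = 0.0269), a call that DESeq2 and several fits without 1 library did not give. No library of one mutant reached into the range of the other at either locus. AT4G04409, on the strand of MIR841b and holding miR841b-3p, differed by 0.25 on the log2 scale (adjusted p = 0.634), which did not pass the test. The other lower loci, AT2G01008 with MIR5642b and AT3G06325 with MIR5642a, had -0.50 and -0.55, and 12.7% and 7.29% of their 21-base windows occur once in the genome, so reads could belong to other copies.

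**Figure D2:**
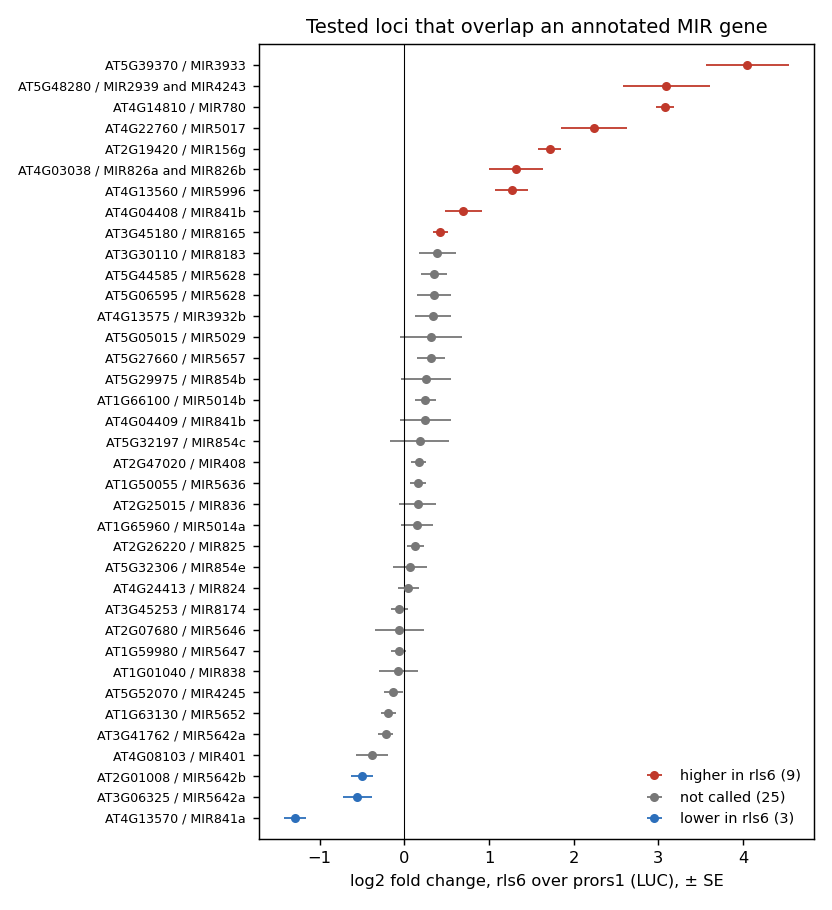
The log2 fold change of rls6 over prors1 (LUC), with its SE, is plotted on the x axis for the 37 tested loci that overlap a MIR gene, named on the y axis with that gene. Red marks the 9 loci higher in rls6 and blue the 3 lower, from 4.05 at AT5G39370 to -1.29 at HTA4.

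Of the 8 trans-acting siRNA loci, 1 was called higher, which is the 12.5% found over all tested loci, and none lower (0 lower at an unadjusted p under 0.05, by edgeR or by DESeq2). TAS3b (AT5G49615), one of the TAS3 genes whose siRNAs act on auxin response factor transcripts, had 147, 152 and 143 normalized reads in rls6, against 102, 95.4 and 106 in prors1 (LUC), with 76.1, 93.2 and 89.2 in Col-0 (LUC). Its log2 fold change was 0.54 ± 0.11 (adjusted p = 0.00109), and the mutants did not overlap. The median of the 8 loci was 0.21. TAS1C, TAS2, TAS1B and TASIR-ARF (AT5G57735) had 0.20, 0.27, 0.16 and 0.40, TAS3 had -0.22 and TAS1A 0.08 (below 0 with upper-quartile scaling and without prors1 (LUC) replicate 1), with adjusted p from 0.130 to 0.766. Without the filter on low values 5 of the 8 passed as higher and 1 as lower, and without prors1 (LUC) replicate 2 the numbers were 3 and 1. TAS4 (AT3G25795), whose siRNAs act on anthocyanin MYB transcripts, had 629, 599 and 560 in rls6, against 475, 583 and 478 in prors1 (LUC), with overlap (0.22, adjusted p = 0.106), while Col-0 (LUC) had 2101, 2406 and 2470.

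Gene families known to give secondary siRNAs after microRNA cleavage had few tested members. Limma called 0 of 13 tested pentatricopeptide repeat genes of that kind and 0 of 5 disease resistance genes, with 1 and 0 at an unadjusted p under 0.05 and 0 in each by edgeR and by DESeq2, beside 18.5% of all tested loci called. Numbers this small do not set the families apart from other loci. The medians were 0.08 and 0.05, but -0.01 and -0.03 with upper-quartile scaling, which gave 1 call among the pentatricopeptide repeat genes. Of 3 tested auxin receptor genes AFB2 (AT3G26810) was higher, with 91.6, 107 and 105 normalized reads in rls6, against 73.7, 77.1 and 79.0 in prors1 (LUC), with 130, 121 and 149 in Col-0 (LUC). That difference of 0.39 on the log2 scale (adjusted p = 0.0297) was not called in 7 of the 17 alternative settings.

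Among the genes of the microRNA and siRNA machinery, 2 of 6 tested loci were lower in rls6 (33.3%, beside 5.99% of all tested loci). None was higher by limma, edgeR or DESeq2 (12.5% of all tested loci by limma), with 1 higher at an unadjusted p under 0.05. Of the lower pair, ABH1 passed the filter only through prors1 (LUC). ABH1 (AT2G13540, chromosome 2, 5636884 to 5643066) encodes the larger cap-binding protein of the nucleus, which is needed for microRNA maturation. It fell to 5.50, 6.60 and 9.91 normalized reads in rls6, against 95.8, 100 and 67.7 in prors1 (LUC), with 157, 182 and 153 in Col-0 (LUC). The 3 genotypes did not overlap, and the log2 fold change of rls6 over prors1 (LUC) was -3.43 ± 0.24 (adjusted p = 6.69e-10). DCL4, which cuts trans-acting siRNAs, had 25.7, 20.7 and 21.8 in rls6, against 43.1, 59.7 and 24.6 in prors1 (LUC) (-0.79, adjusted p = 0.0312). Its libraries overlapped, and the call was lost in 6 alternative settings. None of the 29 listed genes of RNA-directed DNA methylation reached the filter, with 108, 110 and 120 reads in all in rls6, prors1 (LUC) and Col-0 (LUC). The 8 RBP45 and RBP47 genes had 8, 4 and 7. Of the flowering-time genes 2 were tested, with a median of 0.38, and limma called 0 of them (1 at an unadjusted p under 0.05), as did edgeR and DESeq2.

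Among the nuclear photosynthesis genes the largest changes were at CAB3 and CAB2, which encode light-harvesting chlorophyll a/b-binding proteins of photosystem II. CAB3 (AT1G29910, chromosome 1, 10472280 to 10473502) fell to 85.2, 81.1 and 78.3 normalized reads in rls6, against 961, 1229 and 920 in prors1 (LUC), while Col-0 (LUC) had 4.18, 4.02 and 1.02. The genotypes did not overlap, rls6 lying between the other two, and its log2 fold change over prors1 (LUC) was -3.64 ± 0.11 (adjusted p = 1.04e-15). CAB2 (AT1G29920) had 3 reads over the rls6 libraries, against 63 in prors1 (LUC), with 5 in Col-0 (LUC), a 22.4-fold fall with a counting interval of 7.33 to 112. CAB1 (AT1G29930), the next of these genes, had 10.5 ± 4.15 in rls6 and 8.96 ± 5.82 in prors1 (LUC) (SD, n = 3 each, log2 fold change 0.31, limma adjusted p = 0.666), and 41.2% of the 21-base windows of CAB3 also occur in CAB1. Counting cannot fully separate these neighbours. The coding sequences of CAB3 and CAB2, each 804 bases on chromosome 1, are 95.6% identical, and 38.0% of the 21-base windows of CAB3 also occur in CAB2. Coding bases 175 to 264 of both, chosen as the stretch of 90 bases with the most differences, are in lower case with the 7 differing bases in capitals. Only a read that covers none of the capitals matches both genes in full there.
CAB3: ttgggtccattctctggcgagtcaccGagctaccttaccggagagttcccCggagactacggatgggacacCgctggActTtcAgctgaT
CAB2: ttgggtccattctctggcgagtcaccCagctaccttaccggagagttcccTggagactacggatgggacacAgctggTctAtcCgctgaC

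Over the list of 20 nuclear photosynthesis genes, 6 were tested, of which 3 were lower in rls6 (50.0%, beside 5.99% of all tested loci) and 1 was higher (16.7%, beside 12.5%). One of the lower loci is CAB2, which passed the filter only through prors1 (LUC). With a minimum mean of 20 normalized reads only 2 of the list were tested, 1 lower and 1 higher. Numbers this small do not set the list apart from other loci. SIG2 (AT1G08540), which helps the polymerase of the plastid find promoters, had 16.5, 11.3 and 11.9 normalized reads in rls6, against 24.2, 22.2 and 24.6 in prors1 (LUC), and 0 reads in Col-0 (LUC) (log2 fold change -0.81, adjusted p = 0.0284). That call was lost in 7 alternative settings. LHCA2 (AT3G61470), an antenna protein gene of photosystem I, was higher, with 38.5, 31.1 and 33.7 in rls6, against 13.7, 13.5 and 10.3 in prors1 (LUC), with 17.6, 8.03 and 17.4 in Col-0 (LUC) (1.40, adjusted p = 0.000133). For both genes the mutants' libraries did not overlap.

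The chloroplast-encoded loci gave 18 of 106 tested higher in rls6 (17.0%, beside 12.5% of all tested loci) and none lower (1 at an unadjusted p under 0.05, 0 by edgeR and by DESeq2), with a median log2 fold change of 0.30. The count was 7 without rls6 replicate 3, 39 without prors1 (LUC) replicate 1, 10 without prors1 (LUC) replicate 2 and 8 with DESeq2. Of the 18 higher calls 4 held in all alternative settings that tested them. Summed over all chloroplast-encoded loci, rls6 had 27562, 28798 and 29515 normalized reads, against 28335, 20294 and 24602 in prors1 (LUC). These sums overlapped (two-sided exact permutation p = 0.2, adjusted 0.341), and Col-0 (LUC) was lower than both at 13291, 13745 and 15248. ATCG00480 rose to 122, 136 and 142 in rls6, against 98.9, 66.5 and 65.6 in prors1 (LUC) (0.81, adjusted p = 0.000297). ATCG00490 averaged 1839 in rls6 and 1347 in prors1 (LUC), with 499 in Col-0 (LUC) (0.47, adjusted p = 0.00583, not called by limma without a trend).

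Of 32 tested mitochondrion-encoded loci 7 were lower in rls6 (21.9%, beside 5.99% of all tested loci), with a median of -0.42. None was higher (1 at an unadjusted p under 0.05, 0 by edgeR and by DESeq2). Of the 7 lower calls 1 held in all alternative settings that tested it. The number lower was 2 without rls6 replicate 2, 4 without rls6 replicate 3, prors1 (LUC) replicate 1 or prors1 (LUC) replicate 3, and 1 with DESeq2. ATMG01090 had 74.2, 82.0 and 95.1 normalized reads in rls6, against 143, 134 and 124 in prors1 (LUC), with 63.6, 103 and 69.7 in Col-0 (LUC) (log2 fold change -0.67, adjusted p = 0.000375). At this locus rls6 lay within the range of Col-0 (LUC) and below every prors1 (LUC) library. The summed reads of the class were 2440 ± 39.3 in rls6 and 2556 ± 225 in prors1 (LUC) (SD, n = 3 each, exact permutation p = 0.6, adjusted 0.669), so the sum did not differ beyond the spread between libraries.

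Loci with tRNA genes on their opposite strand held 2 of the most abundant falls. CPA (AT3G05520), which encodes a subunit of the complex that caps actin filaments and has a tRNA-Glu gene opposite its end, had 19682, 25770 and 21752 normalized reads in rls6, against 43070, 37428 and 38801 in prors1 (LUC), while Col-0 (LUC) ranged from 10263 to 25146. The log2 fold change was -0.83 ± 0.14 (adjusted p = 9.33e-05), and rls6 lay within the Col-0 (LUC) range but for its highest library. SPP2 (AT3G52340), a sucrose-phosphate phosphatase gene with a tRNA-Cys gene opposite, had 929, 917 and 912 in rls6, against 1784, 1332 and 1686 in prors1 (LUC) (-0.79, adjusted p = 2.49e-06). At SPP2, Col-0 (LUC) had 756, 663 and 791, below every library of both mutants. Neither CPA nor SPP2 overlapped between the mutants. Over the 7 tested loci that overlap a tRNA gene on either strand 2 were higher and 2 lower, 28.6% each beside 12.5% and 5.99% of all tested loci. Both falls held in the 17 alternative settings. The higher calls, at AT3G05760 and AT1G43830, were lost in 4 and 8 of them, with 0 higher by DESeq2, by limma without a trend, without rls6 replicate 1 and without prors1 (LUC) replicate 3. The summed reads of the 7 loci were 24515 ± 2958 in rls6 and 42330 ± 3218 in prors1 (LUC) (SD, n = 3 each, exact permutation p = 0.1, adjusted 0.264). CPA alone averaged 22402 in rls6 and 39766 in prors1 (LUC), so most of the sums and of their difference came from that locus.

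**Figure D3:**
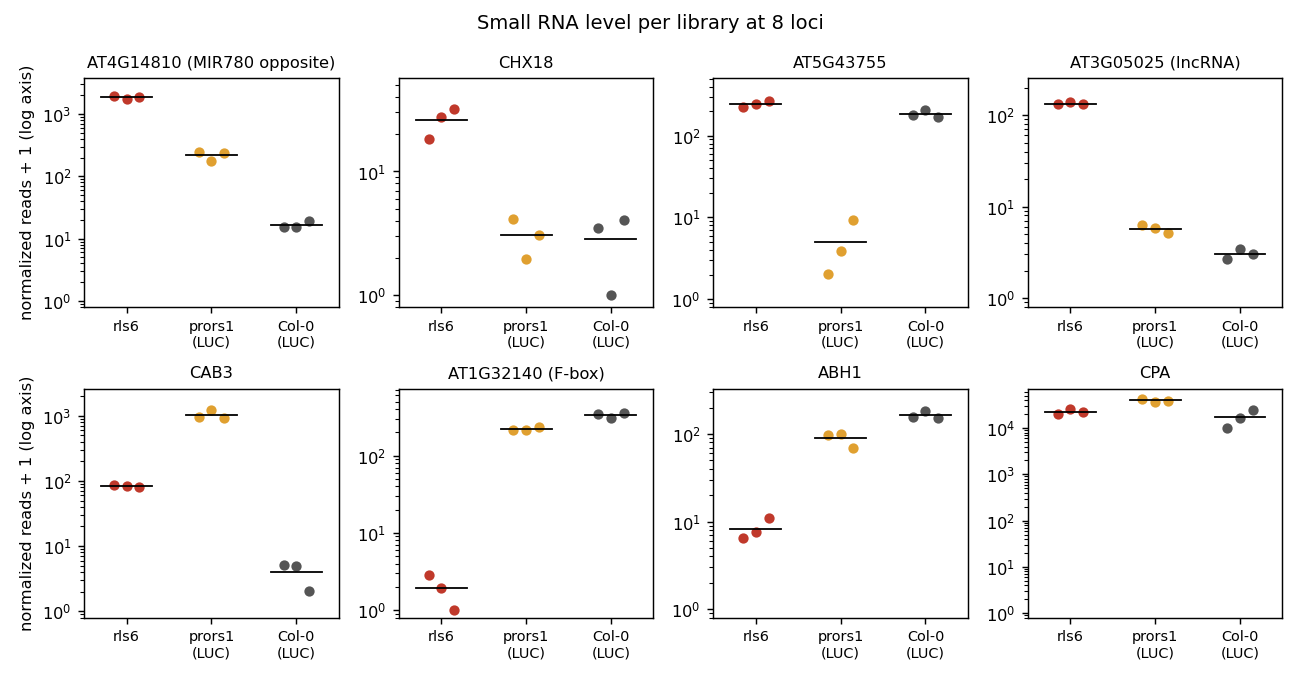
Normalized reads + 1 on a log y axis are plotted for each library (points) and genotype mean (lines) at 8 loci, with rls6, prors1 (LUC) and Col-0 (LUC) from left to right. At AT4G14810 rls6 sits above both others, at CAB3 it sits between them, and at AT5G43755 it sits near Col-0 (LUC), while prors1 (LUC) has 1.05 to 8.21.

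Protein-coding loci, pseudogenes and long non-coding RNA loci made up nearly all of the other calls. Over all tested loci, 12.5% were higher in rls6 and 5.99% lower. Of 1372 tested protein-coding loci 285 were higher in rls6 (20.8%) and 84 lower (6.12%), with a median of 0.11. Among 302 long non-coding RNA loci 88 were higher (29.1%) and 17 lower (5.63%), and the median was 0.23. The 2637 pseudogenes, a biotype that can include transposon loci, had 162 higher (6.14%) and 160 lower (6.07%), with a median of -0.10. The lower share of each class was near that of all tested loci, so it is not a result about these classes. With a minimum mean of 20 normalized reads, 26.4% of protein-coding loci, 38.7% of long non-coding RNA loci and 7.77% of pseudogenes were higher. Of all loci then tested 15.8% were higher. Of the higher calls of the main test, 26 protein-coding loci, 11 long non-coding RNA loci and 5 pseudogenes passed the filter only through rls6. The pseudogene falls were the least steady of these counts, with 314 under upper-quartile scaling, 67 with limma without a trend, 35 with DESeq2, 91 without rls6 replicate 3 and 104 without prors1 (LUC) replicate 3.

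Called pseudogenes differed in length by direction. The median exonic length was 961.5 bases for those higher in rls6, 4023 for those lower and 2463 for those not called. Among protein-coding loci the medians were 840 for the higher, 1199.5 for the lower and 1300 for the loci not called. Read number sets which loci can be called, and the higher and lower pseudogenes had median levels of 72.8 and 87.8 normalized reads, against 32.6 for those not called.

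**Figure D4:**
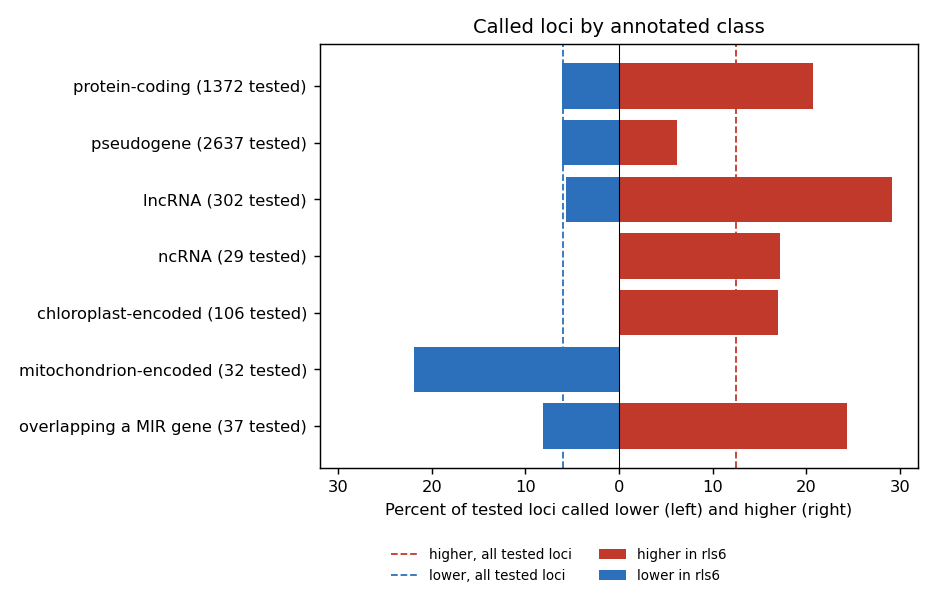
Bars give the percent of the tested loci of each class that were called higher in rls6 (red, to the right) and lower (blue, to the left), and dashed lines give the same for all tested loci, 12.5% and 5.99%. Long non-coding RNA loci reach 29.1% higher, and mitochondrion-encoded loci 21.9% lower.

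The largest rise was at AT5G43755 (chromosome 5, 17582977 to 17583772), which the annotation describes as similar to a reverse transcriptase of non-LTR retroelements. It had 226, 245 and 262 normalized reads in rls6, against 1.05, 2.89 and 8.21 in prors1 (LUC), while Col-0 (LUC) had 178, 206 and 169. The log2 fold change was 5.87 ± 0.34 (adjusted p = 3.57e-11), and rls6 was above every Col-0 (LUC) library as well. Of its 21-base windows 69.2% occur once in the genome. AT5G43755 and the loci named next, AT1G06417, AT3G05025 and AT5G40020, passed the filter only through rls6 and had to differ. Their values and p-values are a description. AT1G06417, a long non-coding RNA gene, had 112 reads in rls6 and 0 in prors1 (LUC), with 1 in Col-0 (LUC). This puts rls6 at least 35.0-fold higher than prors1 (LUC) by the floor of 3 reads over the group. The long non-coding RNA gene AT3G05025 had 130, 137 and 130 in rls6, against 5.26, 4.82 and 4.10 in prors1 (LUC), with 1.67, 2.41 and 2.05 in Col-0 (LUC) (4.54, adjusted p = 1.07e-12). AT5G40020, a gene of the thaumatin family of pathogenesis-related proteins, had 121 reads in rls6 and 3 in prors1 (LUC), with 1 in Col-0 (LUC), a ratio of 37.8 between the mutants (12.6 to 186).

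Several other loci among the 14 with the largest rises were low in both prors1 (LUC) and Col-0 (LUC). AT5G56070, of unknown function, averaged 136 ± 1.38 normalized reads in rls6 and 11.7 ± 3.81 in prors1 (LUC), with 6.67 ± 1.96 in Col-0 (LUC) (SD, n = 3). The serine carboxypeptidase gene AT5G22860 averaged 194 in rls6 and 19.5 in prors1 (LUC), with 34.5 in Col-0 (LUC), and the protein kinase gene AT4G29654 averaged 97.4 in rls6 and 10.5 in prors1 (LUC), with 7.58 in Col-0 (LUC). AT2G02440, of unknown function, and AT3G22050, a cysteine-rich repeat secretory protein gene, had log2 fold changes of 3.73 and 3.32. Each of these 5 had a limma adjusted p of 2.65e-05 or less. The mutants' libraries were apart at AT5G56070, AT5G22860 and AT4G29654, while AT2G02440 and AT3G22050 passed the filter only through rls6 and had to differ.

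A run of neighbours on chromosome 3 was picked out after the values were seen, and the first pair of it passed the filter only through rls6. AT3G23645, a pseudogene of the lipid transfer protein family (8509762 to 8510165), had 54 reads in rls6 and 0 in prors1 (LUC), with 4 in Col-0 (LUC), so that rls6 was at least 16.8-fold higher than prors1 (LUC). The kinase-like gene AT3G23650 (8510689 to 8511196) had 96.2, 89.5 and 81.3 normalized reads in rls6, against 5.26, 1.93 and 6.15 in prors1 (LUC), and the long non-coding RNA gene AT3G04585 (8511333 to 8511982) had 125, 121 and 106 in rls6, against 10.5, 11.6 and 10.3 in prors1 (LUC). All 3 lie on the minus strand. The mutants did not overlap at AT3G04585, while the filter left no room for overlap at the first pair. Col-0 (LUC) averaged 6.61 at AT3G23650 and 12.2 at AT3G04585, close to prors1 (LUC).

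The largest fall of all was at AT1G32140, an F-box family gene on chromosome 1 (11562742 to 11564833). It had 3 reads over the rls6 libraries, 652 over prors1 (LUC) and 1143 over Col-0 (LUC), so that rls6 was 232-fold lower than prors1 (LUC) (counting interval 79.0 to 1127, log2 fold change -6.97 ± 0.31, adjusted p = 8.55e-13). AT5G46930, of the invertase and pectin methylesterase inhibitor family, had 42.1, 29.2 and 41.6 normalized reads in rls6, against 193, 204 and 175 in prors1 (LUC), with 106, 102 and 134 in Col-0 (LUC) (-2.33 ± 0.15, adjusted p = 1.21e-10). HS1 (AT3G17210), which encodes a heat-stable antimicrobial protein, had 49.5, 47.1 and 46.6 in rls6, against 175, 129 and 154 in prors1 (LUC), with 21.7, 32.9 and 47.1 in Col-0 (LUC) (-1.65 ± 0.13, adjusted p = 5.07e-09). AT4G10160, a RING/U-box gene, had 11.9, 9.42 and 8.92 in rls6, against 41.0, 22.2 and 41.0 in prors1 (LUC), with 203, 89.2 and 152 in Col-0 (LUC) (-1.65, adjusted p = 0.000121). In each of these the mutants' libraries were apart, which the filter had fixed for AT1G32140. Col-0 (LUC) lay above both mutants at AT1G32140 and AT4G10160, between them at AT5G46930 and, on average, below both at HS1.

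F-box genes, which encode the substrate-binding subunits of SCF ubiquitin ligases and form a large family in Arabidopsis, were looked at as a family after several had been seen among the largest changes. By the words of the annotated product 83 were tested, 14 were higher in rls6 and 15 lower, with a median of 0.08 (0.00 under upper-quartile scaling). These are 16.9% higher, beside 12.5% of all tested loci, and 18.1% lower, beside 5.99%, and the family was not chosen independently of these values. Of the 14 higher loci 1, and of the 15 lower loci 4, passed the filter only through 1 mutant. AT3G21170 had 136, 136 and 160 normalized reads in rls6, against 13.7, 13.5 and 22.6 in prors1 (LUC) (log2 fold change 3.07, adjusted p = 7.85e-11). MEE66 (AT2G02240) had 55.9, 54.7 and 61.5 in rls6, against 10.5, 4.82 and 4.10 in prors1 (LUC), with 30.1, 22.5 and 25.6 in Col-0 (LUC) (3.06, adjusted p = 4.25e-08). On the other side, AT1G67450 had 162, 162 and 175 in rls6, against 509, 351 and 518 in prors1 (LUC) (-1.44, adjusted p = 9.88e-09), and AT1G66490 averaged 6.95 in rls6 and 22.9 in prors1 (LUC), with 3.48 in Col-0 (LUC). The mutants' libraries were apart at each of these genes, which the filter had fixed for AT1G66490.

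Within 1 F-box array on chromosome 5, also noticed after the values were seen, the 3 F-box genes were lower in rls6. AT5G41490, AT5G41500 and AT5G41510 (16600445 to 16608326) averaged 23.8, 16.2 and 28.5 normalized reads in rls6, against 57.8, 42.1 and 72.6 in prors1 (LUC), with log2 fold changes of -1.20, -1.36 and -1.32. The F-box pseudogene AT5G41494 between the first pair, which passed the filter only through rls6, had 67 reads in rls6 and 1 in prors1 (LUC), with 9 in Col-0 (LUC), a ratio of 62.8 between the mutants with a counting interval of 10.9 to 2517.

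**Figure D5:**
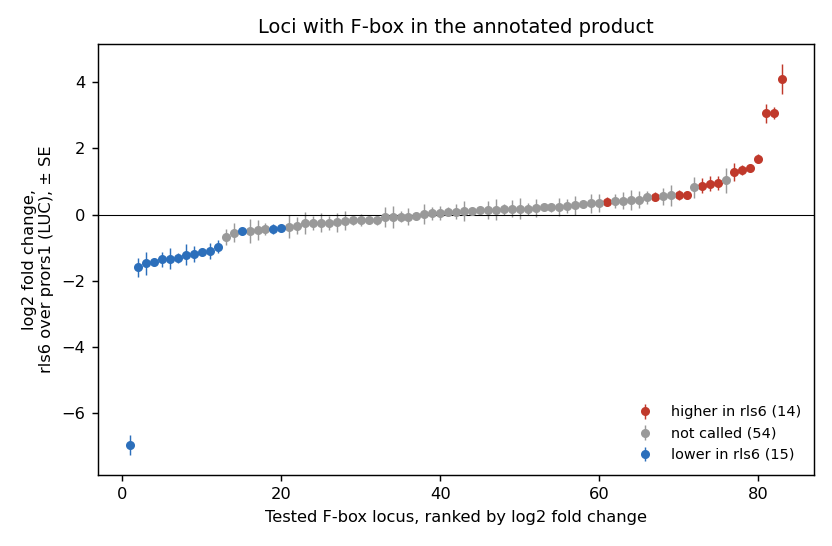
The 83 tested loci with F-box in the annotated product are ranked along the x axis by the log2 fold change of rls6 over prors1 (LUC), which is on the y axis with its SE. The 15 blue points at the left and the 14 red points at the right are the called loci, from -6.97 at AT1G32140 to 4.11 at AT5G41494.

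Other families gave fewer calls, and they too were defined from product words after the values were known. Of 62 tested loci with kinase in the product 14 were higher (22.6%, beside 12.5% of all tested loci) and 3 lower (4.84%, beside 5.99%), and the median was 0.09 (0.01 under upper-quartile scaling). AT2G16620, annotated as a protein kinase, had 146, 166 and 136 normalized reads in rls6, against 16.8, 16.4 and 19.5 in prors1 (LUC) (log2 fold change 3.01, adjusted p = 6.92e-12). AT5G50290, annotated as a galacturonan-binding protein of the wall-associated receptor kinase kind, had 591, 536 and 566 in rls6, against 1913, 973 and 1014 in prors1 (LUC) (-1.13, adjusted p = 1.94e-05), so the replicates of prors1 (LUC) spread widely there. Of 18 pentatricopeptide repeat loci 2 were higher, AT1G28000 (2.14) and AT1G12615 (1.08), or 11.1% beside 12.5% of all tested loci. Of 19 disease resistance loci 1 was lower, AT4G16900 (-0.76, lost in 7 alternative settings), or 5.26% beside 5.99%. Among small nuclear and nucleolar RNA genes, U1.3 (AT5G07775), a spliceosomal U1 RNA gene, had 18.3, 24.5 and 15.9 in rls6, against 4.21, 3.85 and 12.3 in prors1 (LUC) (1.54, adjusted p = 0.00494). The snoRNA gene AT1G06667 had 98.0, 66.9 and 91.2 in rls6, against 27.4, 25.1 and 23.6 in prors1 (LUC) (1.70, adjusted p = 1.72e-07).

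By position, the called loci were spread over the chromosomes, with 17.1% to 20.6% of the tested loci of each called, but a few windows of 1 Mb held mostly falls. Between 3 and 4 Mb, a window noticed after the values were seen, 23 of 119 tested loci on chromosome 2 were lower in rls6 (19.3%, beside 5.99% of all tested loci), 0 were higher (beside 12.5%) and the median was -0.34. Limma, edgeR and DESeq2 each called 0 higher, 0 were higher at an unadjusted p under 0.05, and 107 of the 119 lay below 0. The number lower depended on the tool, with 25 by edgeR but only 6 by DESeq2. The next window of chromosome 2, 4 to 5 Mb, had 15 lower and 1 higher of 130, and that of chromosome 4 from 3 to 4 Mb had 17 lower and 1 higher of 127. Some windows with few tested loci also held falls only, such as 5 to 6 Mb of chromosome 1 with 2 of 14. The window from 3 to 4 Mb of chromosome 2 holds the stretch of nuclear DNA that matches the mitochondrial genome. For 31 of the loci (3247003 to 3484062) more than 50% of 21-base windows also occur in the mitochondrial genome, and 6 of these were lower, with a median of -0.47, while 17 of the other 88 were lower, with a median of -0.32. Mitochondrial reads and reads of the nuclear copy cannot be told apart by sequence at those 31 loci.

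Set beside Col-0 (LUC), whose libraries were not part of the filter or the test, the differences did not all run one way. Loci that were not called were not placed against Col-0 (LUC), so the counts below only describe the called loci. Of the 560 loci higher in rls6, Col-0 (LUC) was nearer, on the log2 scale, to prors1 (LUC) at 373 (66.6%), and it was below both mutants at 187. It was nearer to rls6 at 187, with 50 of these above both mutants. Of the 269 loci lower in rls6, Col-0 (LUC) was nearer to rls6 at 145 (53.9%) and nearer to prors1 (LUC) at 124. Among loci with at least a 2-fold difference, Col-0 (LUC) was nearer to prors1 (LUC) at 205 of the 266 higher loci and nearer to rls6 at 23 of the 42 lower ones. AT4G14810, AT3G05025 and AT5G56070 are loci where Col-0 (LUC) was on the side of prors1 (LUC), AT5G43755, HS1 and CPA are loci where it was nearer to rls6, and ABH1 and AT1G32140 are falls in which it lay above both.

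Markers of other tissues gave no sign that could be read. Over the rls6, prors1 (LUC) and Col-0 (LUC) libraries, 4 floral organ genes had 5, 1 and 4 reads and 3 root hair genes had 3, 0 and 0, so none was tested, and the part of tissue make-up in these results was not tested.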

How the data were processed

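The signal values deposited by the authors behave as read counts per locus divided by a size factor per library, as read from the values themselves. The submitters' processing notes name Bowtie2, featureCounts, FastQC and Trimmomatic and the TAIR10 build. For their versions, settings, strand and multiply mapping reads, the answer is not given in the sources used here. All were whole multiples of 1 step per library within 1e-06, and the reads recovered this way served count tests and counting intervals. The 6 mutant libraries held 611238 to 679773 reads over size factors of 0.950 to 1.09.

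Groups came from the sample titles. Loci were matched by identifier to the RefSeq TAIR10.1 annotation (37051 nuclear, 285 organelle loci known by identifier only). Only nuclear coordinates are given. The main test was limma's moderated test (limma 3.58.1 under R 4.3.3, two-sided), run on log2(normalized reads + 1) with the prior variance following the mean level, over loci reaching 10 normalized reads in 3 or more of the 6 libraries, with genotype as the only term and Benjamini-Hochberg adjustment over 4488 loci at 0.05. It was also run on simulated counts with the same spread setting at every locus, unlike the real libraries, and no result here rests on that run. Adjusted p-values without another named tool come from the main test. Alternatives used edgeR 4.0.16 and DESeq2 1.42.0 on recovered reads. Sums were tested by exact permutation of libraries, two-sided (scipy 1.17.1). Loci were described in full if named in the title or labels or as TAS loci, if among the 14 largest or 14 smallest log2 fold changes or the 6 most abundant with non-overlapping libraries and a mean of at least 20 normalized reads in 1 mutant, or if among the 3 most changed called members of a list per direction; of these, those with the clearest bearing on each group are given. Other MIR, F-box and kinase loci were named after their values were seen. The members and lists were chosen with earlier results of these data known. Other alternatives changed the pseudocount, filter, size factors, trend, libraries in the fit and replicate block. The authors' comparison columns were not used.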

Additional observations from a re-analysis of the deposited data

How the results depend on the processing

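Among 17 alternative settings, edgeR, TMM factors, the other pseudocounts and all 9 libraries in the fit moved no main count by over 1.5 times. The main test called 560 higher and 269 lower. Leaving out each library in turn gave 438 to 557 higher and 175 to 245 lower loci, 230 to 285 and 65 to 79 among protein-coding loci, 122 to 163 and 91 to 141 among pseudogenes, 7 to 39 chloroplast-encoded loci higher, 2 to 5 mitochondrion-encoded loci lower, and 1 to 3 loci with a MIR gene lower. Without the filter 178 loci were lower, with 77 pseudogenes and 2 mitochondrion-encoded loci among them, and medians were -0.078 for pseudogenes, 0.17 for long non-coding RNA and -0.25 for mitochondrion-encoded loci. Upper-quartile factors gave 469 lower, with 314 pseudogenes, 12 mitochondrion-encoded loci and 5 loci with a MIR gene, and medians of 0.028 for protein-coding loci, -0.18 for pseudogenes and 0.15 for long non-coding RNA. Limma without a trend gave 133 lower, with 51 protein-coding loci, 67 pseudogenes and 2 mitochondrion-encoded loci, and 8 chloroplast-encoded loci higher. DESeq2 gave 94 lower, with 50 protein-coding loci, 35 pseudogenes, 8 long non-coding RNA loci and 1 mitochondrion-encoded locus, and 105 pseudogenes and 8 chloroplast-encoded loci higher. A minimum mean of 20 left 5 loci with a MIR gene higher. TAS1A (AT2G27400), at 0.083, changed sign to -0.00168 under upper-quartile factors, and ranged from -0.074 to 0.296 with single libraries left out. The cause was not tested. With the replicate number as a block 640 loci were higher and 336 lower, with 40 chloroplast-encoded loci higher; deviations of same-numbered libraries from their group means correlated at r of -0.00882, 0.0585 and 0.0437, so the numbers were not taken as pairs, and rls6 replicate 1 did not correlate best with its own number. Depth limits loci below about 10 reads per library, which were not tested.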
